A study of Arabidopsis thaliana with 6 samples.

Results

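Small heat shock proteins are a family of heat-induced chaperones, and 10 of the Arabidopsis genes that encode them are described here in seedlings of the nid1 knockout mutant and of the wild type. The genes were taken by locus from the 38150 gene identifiers that each library's table holds, and all 10 were found in all 6 tables. They are HSP17.4 (gene-AT3G46230), HSP17.6A (gene-AT1G59860), HSP17.6C (gene-AT1G53540), HSP18.2 (gene-AT5G59720) and HSP17.8 (gene-AT1G07400) of cytosolic class I, HSP17.6II (gene-AT5G12020) of cytosolic class II, HSP21 (gene-AT4G27670) of the chloroplast, HSP22 (gene-AT4G10250) of the endomembrane system, and HSP23.6 (gene-AT4G25200) and HSP26.5 (gene-AT1G52560) of the mitochondrion. There were 3 libraries from nid1 knockouts and 3 from Col-0 wild type (WT). Every library came from whole seedlings aged 9 days, raised in a 16 h light and 8 h dark cycle at 23 °C with humidity held at 60%. All plants of both genotypes grew on 20 mM nitrate, passed to nitrate-deficient conditions and then received 0.05 mM nitrate for 6 h, so neither genotype was heat-treated by the labels. The labels give neither the locus nor the allele behind nid1 and do not say how many plants went into a library, so the loss of the transcript was not checked, and p-values measure only the spread between these libraries, which may be technical.

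Small heat shock proteins bind unfolding proteins without using ATP and hold them in a state from which the HSP70 and HSP101 machines can refold them. Plants carry an unusually large family, with members that reside in the cytosol, chloroplasts, mitochondria and endomembranes. Their transcripts are scarce in unstressed leaves and roots. Heat shock factors, transcription factors of the HSF family, bind repeats of the pentamer nGAAn in their promoters and raise them steeply on heating, and some cytosolic members also accumulate in maturing seeds.

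The sequence before each gene is shown first because these genes are known for a shared regulatory element. The element was searched as GAANNTTC, which reads the same on both strands, and in an extended form in which GAANNTTC is followed directly by NNGAA, on either strand, so that every extended match contains a short one. In the 250 bases before the annotated transcript start (RefSeq, TAIR10.1) 4 of the 10 genes held the short form, against 9.57% of 27443 protein-coding genes, and 2 of the 10 held the extended form, against 0.39% of the same genes. Below are the 150 bases that end just before the transcript start of 4 genes, 5′ to 3′ on the gene's own strand, with matches in capitals. HSP17.4 and HSP17.6C carry the extended form, HSP26.5 carries the short form, and HSP17.6II, one of the genes with the largest difference between the genotypes, carries none in this window.
HSP17.4, chr3:16984842-16984991, minus strand: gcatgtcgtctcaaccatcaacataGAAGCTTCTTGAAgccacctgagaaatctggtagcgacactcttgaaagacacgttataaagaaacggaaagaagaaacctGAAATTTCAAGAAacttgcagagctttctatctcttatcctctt
HSP17.6C, chr1:19980149-19980298, plus strand: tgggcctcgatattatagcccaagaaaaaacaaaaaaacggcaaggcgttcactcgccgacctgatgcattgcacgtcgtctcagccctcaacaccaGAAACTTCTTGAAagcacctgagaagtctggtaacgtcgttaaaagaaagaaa
HSP26.5, chr1:19575867-19576016, minus strand: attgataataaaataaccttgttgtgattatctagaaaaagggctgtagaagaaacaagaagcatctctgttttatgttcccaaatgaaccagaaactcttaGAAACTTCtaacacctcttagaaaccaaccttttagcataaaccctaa
HSP17.6II, chr5:3883112-3883261, minus strand: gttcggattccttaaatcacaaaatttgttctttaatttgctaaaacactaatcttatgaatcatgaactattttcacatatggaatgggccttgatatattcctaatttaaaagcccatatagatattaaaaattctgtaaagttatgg

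Annotated 5′ untranslated spans of these genes ran from 76 to 309 bases, so a second window of 300 genomic bases before the start codon was searched, chosen after the first result was seen. It held the short form in 7 of the 10 genes, against 13.6% of 27443 protein-coding genes, and the extended form in 4 of the 10, against 0.747%. HSP17.6A, HSP17.8 and HSP17.6II had no match in it. A match is a run of letters and not a measured binding site. The matches nearest to the transcript start of 3 genes that the first window missed lay inside the annotated untranslated span and are shown with 6 bases on either side, matches in capitals. HSP18.2 and HSP22 hold the extended form, which in HSP22 lies on the opposite strand.
HSP18.2, chr5:24062390-24062414, plus strand, 223 bases before the start codon: acaaacGAAACTTCCTGAAatgcca
HSP22, chr4:6370381-6370405, plus strand, 137 bases before the start codon: agatatTTCAAGAAACTTCttcatt
HSP23.6, chr4:12916933-12916952, plus strand, 142 bases before the start codon: tctccaGAACATTCactcac

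**Figure D1:**
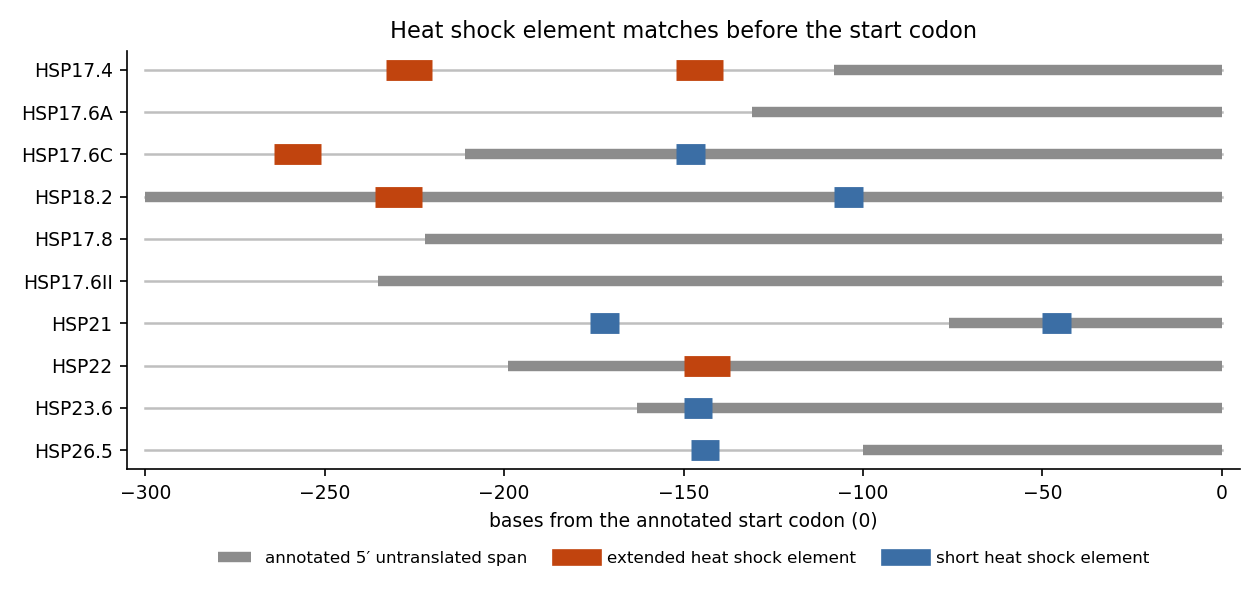
Positions of heat shock element matches in the 300 bases before the start codon of the 10 small heat shock protein genes, with the horizontal axis in bases from the start codon, thick grey for the annotated 5′ untranslated span, and 1 row per gene. HSP17.4 holds 2 extended matches, while HSP17.6A, HSP17.8 and HSP17.6II hold no match in this window.

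The deposited values are FPKM, fragments scaled to transcript length and library size, with 1 value per gene and library. Pairwise Pearson correlations of log2(FPKM + 1) across genes were 0.97 to 0.99, and the first principal component, with 38.3% of the variance, set WT replicate 2 apart. Low values did not fall on even steps, so fragment counts were not recovered. Approximate steps placed the depth of the nid1 libraries at 0.753 to 0.854 of that of WT replicate 1, and of WT replicates 2 and 3 at 0.806 and 0.97. By the same steps the 10 genes rested on roughly 1 to 55 fragments per nid1 library and 11 to 91 per WT library, so their values carry a large counting error that cannot be given as an interval. The genotypes were compared with limma on log2(FPKM + 1), with genes counted as called where p, adjusted over all genes tested, was under 0.05.

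All 10 genes were weakly expressed in both genotypes, and all 10 had the lower mean in nid1, beside 51.9% of 27453 genes with a value above 0. Mean levels ran from 0.147 to 2.01 FPKM in nid1 and from 0.643 to 3.23 FPKM in WT, and ratios of the means (nid1 over WT) ran from 0.211 to 0.68 with a median of 0.427. In 8 genes each of the 3 nid1 values lay below each of the 3 WT values, beside 4.59% of those 27453 genes. None of the 10 was called, beside 0.0877% of 20533 tested genes in either direction and 0.0244% with the lower value in nid1. The filter for testing, 1 FPKM or more in at least 3 libraries, let 7 of them through, 3 of these with no nid1 library at that level. Without the filter all 10 were tested and limma gave adjusted p-values of 0.259 to 0.887, while 0.0656% of 27453 genes were called. Unadjusted p was under 0.05 and the value lower in nid1 for 8 of the 10 in that unfiltered fit, against 2.7% of all 27453 genes. The genes were proposed with results of these data known, so these counts describe them and are no independent test.

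**Figure D2:**
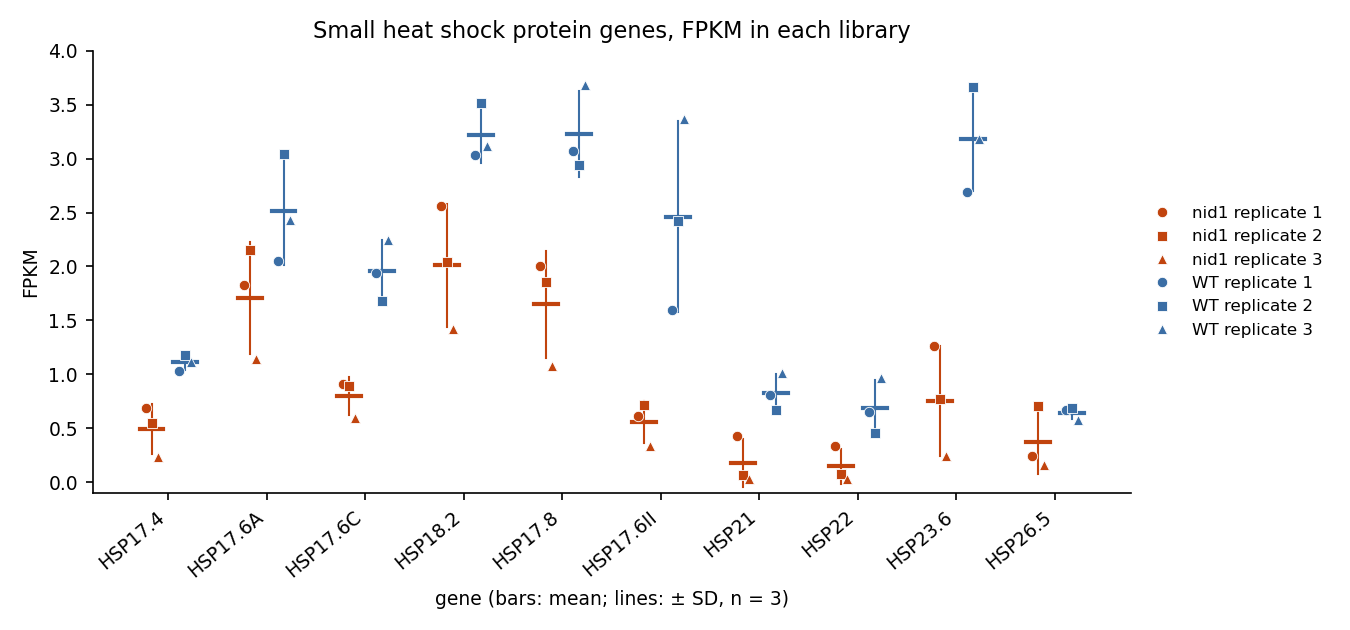
FPKM (vertical axis) of the 10 small heat shock protein genes (horizontal axis) in each nid1 library (orange, left) and WT library (blue, right), with bars for the mean and lines for ± SD (n = 3 each). The 2 genotypes overlap in HSP17.6A and HSP26.5 and not in the other 8 genes, and nid1 replicate 3, the orange triangle, is the lowest of the 6 libraries in every gene.

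The cytosolic class I genes have intron-free transcripts and encode closely related proteins that assemble into large oligomers. Their coding sequences were 67.5% to 88.1% identical between pairs, with HSP17.6A and HSP17.8 the closest pair. No window of 101 bases, the read length, or of 50 bases in the transcripts of the 10 genes occurred exactly at any other place in the reference genome. Reads with mismatches could still be shared, and the sources used here do not say how the authors divided such reads.

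HSP17.6C (chromosome 1, 19980299 to 19981199) had 0.912, 0.892 and 0.595 FPKM in nid1 replicates 1, 2 and 3, against 1.94, 1.68 and 2.25 FPKM in WT replicates 1, 2 and 3. The highest nid1 library stood well under the lowest WT library. Its mean was 0.8 ± 0.178 FPKM in nid1 and 1.96 ± 0.287 FPKM in WT (SD, n = 3 each), 2.45-fold lower in nid1, and limma gave a log2 fold change of -0.72 (SE 0.145, adjusted p = 0.242).

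HSP17.4 (chromosome 3, 16984118 to 16984867), a class I gene that is also known from maturing seeds, had 0.69, 0.553 and 0.236 FPKM in nid1 and 1.03, 1.18 and 1.11 FPKM in WT, in replicate order. The WT libraries were tightly grouped and the nid1 libraries lay below them and apart from one another. The means were 0.493 ± 0.233 FPKM in nid1 and 1.11 ± 0.0706 FPKM in WT (SD, n = 3 each), with a limma log2 fold change of -0.51 (SE 0.157, adjusted p = 0.515). A long non-coding RNA gene, AT3G07365, lies on the other strand and shares 453 of the 724 exonic bases of HSP17.4. It was the more abundant of the pair, with 7.35, 6.47 and 4.93 FPKM in nid1 and 13.8, 20.3 and 21.1 FPKM in WT, and its limma log2 fold change was -1.41 (SE 0.198, adjusted p = 0.0899). A second gene on the other strand, the protein-coding AT3G46220, shares 60 exonic bases with HSP17.4. It had 10.3, 11.7 and 12.3 FPKM in nid1 and 11.6, 8.53 and 12.6 FPKM in WT, with a limma log2 fold change of 0.08 (SE 0.159). AT3G07365 and AT3G46220 were named after their values were seen. The libraries were stranded per the labels' protocols, but the strand setting of the authors' quantification was not stated in the labels. Whether fragments of HSP17.4 and of these antisense genes were kept apart in these values is therefore not known.

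HSP17.8 (chromosome 1, 2274926 to 2275783) had 2, 1.86 and 1.08 FPKM in nid1 and 3.07, 2.94 and 3.68 FPKM in WT. All 3 nid1 values lay below the WT values. The mean was 1.65 ± 0.498 FPKM in nid1 and 3.23 ± 0.398 FPKM in WT (SD, n = 3 each), the highest WT mean of the 10. The limma log2 fold change was -0.69 (SE 0.174, adjusted p = 0.351).

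HSP18.2 (chromosome 5, 24062323 to 24063300), whose promoter is widely used as a heat-inducible driver, had 2.56, 2.04 and 1.42 FPKM in nid1 and 3.03, 3.52 and 3.12 FPKM in WT. The groups did not overlap, though nid1 replicate 1 came close to WT replicate 1. The mean was 2.01 ± 0.57 FPKM in nid1, where it was the highest of the 10, and 3.22 ± 0.259 FPKM in WT (SD, n = 3 each). The limma log2 fold change was -0.51 (SE 0.166, adjusted p = 0.578).

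HSP17.6A (chromosome 1, 22031343 to 22032250) had the ratio of means nearest to 1, at 0.68. It had 1.83, 2.15 and 1.14 FPKM in nid1 and 2.05, 3.04 and 2.43 FPKM in WT, and nid1 replicate 2 lay above WT replicate 1. The means were 1.71 ± 0.519 FPKM in nid1 and 2.51 ± 0.499 FPKM in WT (SD, n = 3 each). The limma log2 fold change was -0.38 (SE 0.186, adjusted p = 0.878), and it was -0.22 without nid1 replicate 3. Summed over the 5 class I genes, FPKM came to 7.99, 7.5 and 4.47 in nid1 and 11.1, 12.35 and 12.6 in WT. With AT2G29500, a further class I gene whose coding sequence was 79.2% identical to that of HSP17.6A and 80.2% to that of HSP17.8, the sum was 15.5, 12.6 and 9.23 in nid1 and 19.7, 21.88 and 20.8 in WT.

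HSP17.6II, the class II gene, showed one of the larger differences. Class II proteins form oligomers of their own and do not mix with class I. HSP17.6II (chromosome 5, 3882231 to 3883111) had 0.618, 0.72 and 0.34 FPKM in nid1 and 1.6, 2.42 and 3.37 FPKM in WT. Every nid1 library lay below 1 FPKM and every WT library above it, with the WT libraries spread widely. The mean was 0.559 ± 0.197 FPKM in nid1 and 2.46 ± 0.885 FPKM in WT (SD, n = 3 each), 4.4-fold lower in nid1. The limma log2 fold change of HSP17.6II was -1.13 (SE 0.21, adjusted p = 0.197).

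HSP17.6II has a neighbour of the same class on the same strand, AT5G12030 (chromosome 5, 3883957 to 3884838), to which its coding sequence was 86.1% identical. AT5G12030, which RefSeq also names HSP17.6A, had 2.58, 2.2 and 1.13 FPKM in nid1 and 3.07, 4.22 and 6.91 FPKM in WT. In both genes of the pair WT replicate 3 was the highest library and nid1 replicate 3 the lowest. The limma log2 fold change of AT5G12030 was -0.93 (SE 0.281, adjusted p = 0.498). Summed FPKM of the pair was 3.19, 2.92 and 1.47 in nid1 and 4.67, 6.64 and 10.3 in WT.

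Among the genes for organelle proteins, HSP23.6 (chromosome 4, 12916926 to 12918110), which encodes a chaperone of the mitochondrial matrix, was the most abundant. It had 1.26, 0.771 and 0.239 FPKM in nid1 and 2.69, 3.66 and 3.18 FPKM in WT, with a wide gap between the groups and a spread of several fold within nid1. The mean was 0.756 ± 0.509 FPKM in nid1 and 3.18 ± 0.484 FPKM in WT (SD, n = 3 each), 4.21-fold lower in nid1. The limma log2 fold change of -1.29 (SE 0.225, adjusted p = 0.166) was the largest of the 7 genes that passed the filter.

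HSP21 (chromosome 4, 13818825 to 13819971), the chloroplast member, which associates with thylakoids and with the plastid transcription machinery, had 0.429, 0.0681 and 0.0281 FPKM in nid1 and 0.807, 0.665 and 1.01 FPKM in WT. HSP22 (chromosome 4, 6370338 to 6371372), of the endomembrane system, had 0.335, 0.0753 and 0.0305 FPKM in nid1 and 0.652, 0.456 and 0.965 FPKM in WT. Both genes were close to silent in nid1 replicates 2 and 3, where each rested on roughly 1 or 2 fragments, and both lay higher in nid1 replicate 1. Neither passed the filter. In the fit without a filter limma gave log2 fold changes of -0.65 for HSP21 (SE 0.142, adjusted p = 0.408) and -0.56 for HSP22 (SE 0.142, adjusted p = 0.477). The log2(FPKM + 1) scale understates such low genes, and their ratios of mean FPKM were 0.211 and 0.213.

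HSP26.5 (chromosome 1, 19574538 to 19575866), annotated by RefSeq to the mitochondrion and to responses to heat, high light and hydrogen peroxide, had 0.246, 0.706 and 0.163 FPKM in nid1 and 0.668, 0.687 and 0.575 FPKM in WT. Its nid1 replicate 2 was the highest of the 6 libraries while the other two nid1 libraries lay below WT. The means were 0.372 ± 0.293 FPKM in nid1 and 0.643 ± 0.0599 FPKM in WT (SD, n = 3 each), and without a filter the limma log2 fold change was -0.28 (SE 0.145, adjusted p = 0.887). Over the 4 organelle genes, summed FPKM was 2.27, 1.62 and 0.461 in nid1 and 4.82, 5.47 and 5.74 in WT, a ratio of means of 0.271, beside 0.553 for class I. The difference between these ratios was not tested.

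Ordered by mean FPKM, a level per transcript length, nid1 ran from HSP18.2, HSP17.6A and HSP17.8 through HSP17.6C, HSP23.6, HSP17.6II, HSP17.4 and HSP26.5 to HSP21 and HSP22. In WT the order was HSP17.8, HSP18.2, HSP23.6, HSP17.6A, HSP17.6II, HSP17.6C, HSP17.4, HSP21, HSP22 and HSP26.5. Ranges of neighbours in the order overlapped in 8 of 9 pairs in nid1, all but HSP17.8 and HSP17.6C, and in 7 of 9 pairs in WT, all but HSP17.6C and HSP17.4, and HSP17.4 and HSP21. By mean level in WT the 10 genes stood between percentiles 22.3 and 38.4 of the genes with a value above 0.

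Replicate 3 of nid1 was the lowest of the 6 libraries in all 10 genes, while the order of the other libraries varied from gene to gene. The share of all genes with their lowest value in nid1 replicate 3 was not computed, so this may not be particular to the 10. The highest WT library was WT replicate 2 in 5 genes and WT replicate 3 in the other 5, and WT replicate 2 was the lowest WT library in HSP17.6C, HSP17.8, HSP21 and HSP22. Summed over the 10 genes, FPKM was 10.87, 9.84 and 5.267 in nid1 and 17.55, 20.24 and 21.71 in WT. With nid1 replicate 3 left out, 8 of the 10 genes had every nid1 value below every WT value, where 6.36% of 27453 genes did so. Leaving out a library cannot undo such a separation, so this count could not have fallen and is no test of that library's weight. Of the 7 genes that passed the filter, 6 had an unadjusted limma p under 0.05 over all libraries, where 2.56% of 20533 genes did so with the value lower in nid1. Without nid1 replicate 3, 4 of the 7 had one, and the share over all genes was not computed for that fit. HSP17.4 and HSP18.2 then came to unadjusted limma p-values of 0.0528 and 0.0671. Since passing could rest on the WT libraries alone, these counts out of 7 are given as description.

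A list of 7 further small heat shock protein genes was compared, which may not hold all the rest of the family. All 7 passed the filter and none was called, beside 0.0877% of 20533 tested genes. Their median log2 fold change was -0.33, with 6 below 0, beside a median of 0 over all genes tested. In 3 of the 7 every nid1 value lay below every WT value, beside 4.59% of the 27453 genes. Besides AT5G12030 these were AT2G29500, a class I gene, and HSP23.5 (AT5G51440), the close relative of HSP23.6. AT2G29500 had 7.51, 5.12 and 4.76 FPKM in nid1 and 8.59, 9.52 and 8.19 FPKM in WT (limma log2 fold change -0.54, SE 0.169, adjusted p = 0.526). HSP23.5 had 19.8, 13.9 and 10.8 FPKM in nid1 and 21.1, 28.4 and 20 FPKM in WT (limma log2 fold change -0.63, SE 0.225, adjusted p = 0.654). These abundant relatives, like the scarcer 10, were lowest in nid1 replicate 3.

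A list of 15 regulators that act upstream of small heat shock genes held heat shock factors, the coactivator MBF1C and the activator DREB2A. Of the 15, 13 passed the filter, none was called by limma, 9 lay below 0 and the median log2 fold change was -0.13. No member of this group had an unadjusted limma p under 0.05, and the smallest adjusted p was 1. Over all 20533 tested genes, 0.0877% were called and 2.56% had an unadjusted limma p under 0.05 with the value lower in nid1. Counts of 0 among 13 genes lie close to those shares. Every nid1 value lay below every WT value in 1 of the 15, beside 4.59% of the 27453 genes. This was DREB2A, not itself a heat shock factor but an activator of drought and heat genes. DREB2A had 2.72, 2.82 and 2.83 FPKM in nid1 and 3.45, 2.84 and 3.39 FPKM in WT, so the groups nearly met. HSFA7A, a heat-induced factor, had 7.59, 7.27 and 6.75 FPKM in nid1 and 6.32, 7.01 and 5.33 FPKM in WT, and the heat-induced coactivator MBF1C 24.89, 27.41 and 19.75 FPKM in nid1 and 26.25, 38.87 and 23.62 FPKM in WT. HSFA2, the factor that prolongs the heat response and was named for this role after its values were seen, had 3.45, 2.5 and 2.49 FPKM in nid1 and 3.55, 2.79 and 3.49 FPKM in WT.

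Of 18 large chaperones and their partners, all passed the filter and none was called by limma, beside 0.0877% of 20533 tested genes. The median log2 fold change was -0.09, with 17 below 0, and 3 of the 18 had every nid1 value below every WT value, beside 4.59% of the 27453 genes. An unadjusted limma p under 0.05 was found in 1 of the 18, where 2.56% of the 20533 genes had one with the value lower in nid1. This was HSA32, a protein that maintains acquired heat tolerance, with 1.87, 1.27 and 1.57 FPKM in nid1 and 1.98, 2.59 and 2.43 FPKM in WT (limma log2 fold change -0.38, SE 0.148, adjusted p = 0.727). HSP70-4 (AT3G12580), a cytosolic HSP70, had 41.4, 29.2 and 28.4 FPKM in nid1 and 49.6, 39.1 and 34.8 FPKM in WT, and CLPB3, the chloroplast relative of HSP101, 20, 26.6 and 27.3 FPKM in nid1 and 30.4, 22.7 and 36 FPKM in WT. In both of these genes the genotypes overlapped. The disaggregase HSP101, named for its role after its values were seen, had 2.91, 2.71 and 2.44 FPKM in nid1 and 3.59, 2.17 and 3.47 FPKM in WT.

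**Figure D3:**
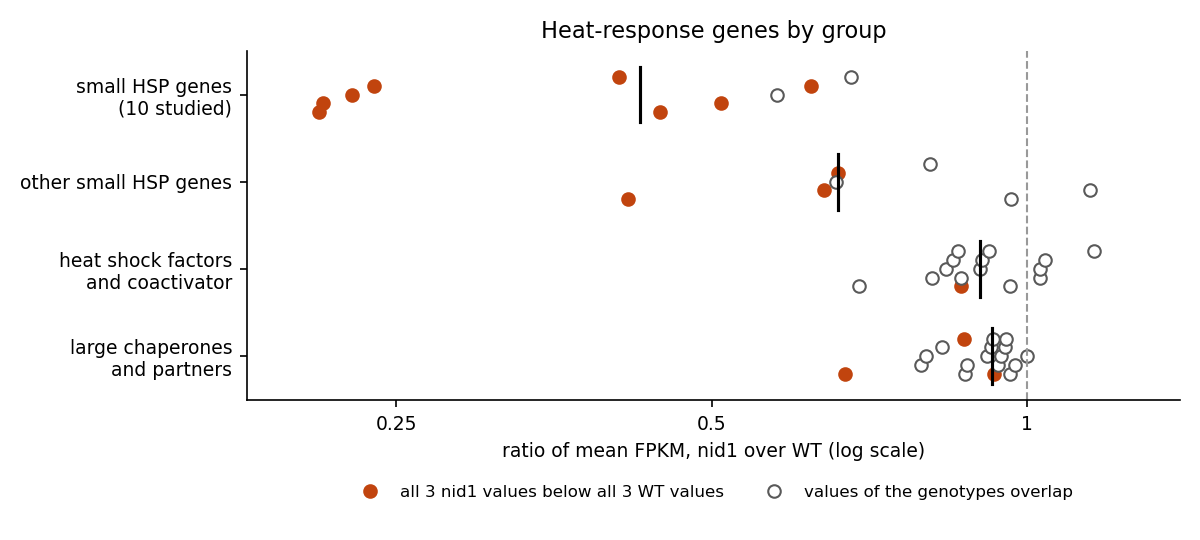
Ratios of mean FPKM, nid1 over WT (horizontal axis, log scale), for each gene of 4 groups of heat-response genes, with a black line at each group's median and filled points where all 3 nid1 values lay below all 3 WT values. The 10 small heat shock protein genes lie between 0.211 and 0.68, and no gene of any group was called over all genes.

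The genes whose profile over the 6 libraries was most like that of the 10 were sought among 15192 tested genes with a mean of at least 5 FPKM, by the root mean square difference of centred log2(FPKM + 1) values from the mean profile of the 10. The closest was CYP96A9 (AT4G39480), a cytochrome P450 gene, at a difference of 0.0767, with 4.5, 4.06 and 3.06 FPKM in nid1 and 6.55, 7.19 and 6.4 FPKM in WT. It was followed by AT1G17310, of the MADS-box family, at 0.0851, PMZ (AT3G28210), of the AN1-like zinc finger family, at 0.103, AT1G30720, of the FAD-binding berberine family, at 0.106, and the uncharacterized AT4G37030 at 0.107. Among the 15192 genes the core hypoxia genes PCO1 (AT5G15120), LDH (AT4G17260) and SUS4 (AT3G43190) ranked 15, 25 and 189, and the small heat shock genes AT2G29500 and HSP23.5 ranked 35 and 131. These 5 ranks were picked after they were seen. With 6 libraries from 2 genotypes, every gene that was lower in nid1 shares much of this profile. The log2(FPKM + 1) scale also shrinks changes in genes as low as the 10 more than in genes at 5 FPKM or more. A close match on this scale therefore does not mean an equal ratio of FPKM, and genes with a weaker proportional change are favoured.

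HSP17.6C lies near a group of genes that limma called higher in nid1. The end of HEI10 (AT1G53490; log2 fold change 1.66) is 13347 bases from HSP17.6C, that of MRD1 (AT1G53480; log2 fold change 1.29) 15587 bases and that of AT1G07887 (log2 fold change 5.21) 16194 bases. None of the other 9 small heat shock genes had a called gene within 50000 bases. Only 18 of 20533 tested genes were called, and the share of all genes with a called gene this near was not computed.

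Marker groups of other responses and organs are given beside these results. Summed FPKM of 9 core hypoxia genes, a low-oxygen response in which heat shock genes are also known to take part, was 2092, 1803 and 1242 in nid1 and 2090, 4167 and 2956 in WT, lowest in nid1 replicate 3 and highest in WT replicate 2. All 9 had log2 fold changes below 0 (median -0.79), 4 of the 9 had every nid1 value below every WT value, beside 4.59% of the 27453 genes, and none was called by limma, beside 0.0877% of the 20533 tested. ADH1 was the largest part of each hypoxia sum, with 1054, 925.7 and 624.7 FPKM in nid1 and 1032, 2159 and 1526 FPKM in WT. Summed FPKM of 5 shoot markers was 503, 874 and 771 in nid1 and 284, 368 and 318 in WT, and for 3 of the 5 every nid1 value exceeded every WT value, beside 5.47% of the 27453 genes with a value above 0. The shoot marker GLDP1 went the other way, with a ratio of means (nid1 over WT) of 0.89, beside 1.56 to 2.86 for the other shoot markers. Summed FPKM of 5 root markers was 414, 406 and 448 in nid1 and 552, 449 and 531 in WT, and 0 of the 5 stood apart. NRT2.1 and CASP1 made up most of the root sums, with ratios of means of 0.709 and 1.02. The other root markers had ratios of 0.758 to 0.909. None of the shoot or root markers was called by limma. Shoot and root markers were both expressed in every library, as whole seedlings require. The part of hypoxia and of the shoot share in the differences was not tested, and in whole seedlings fewer cells of a type and less RNA per cell cannot be told apart. All 9 seed maturation markers stayed under 1 FPKM in every library, with sums of 0.318 to 0.794 FPKM in nid1 and 0.309 to 1.14 FPKM in WT, and the seed storage gene SESA1 was at 0 in all 6. EM6 made up most of these sums, with 0.469, 0.605 and 0.241 FPKM in nid1 and 0.596, 0.88 and 0.204 FPKM in WT.

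**Figure D4:**
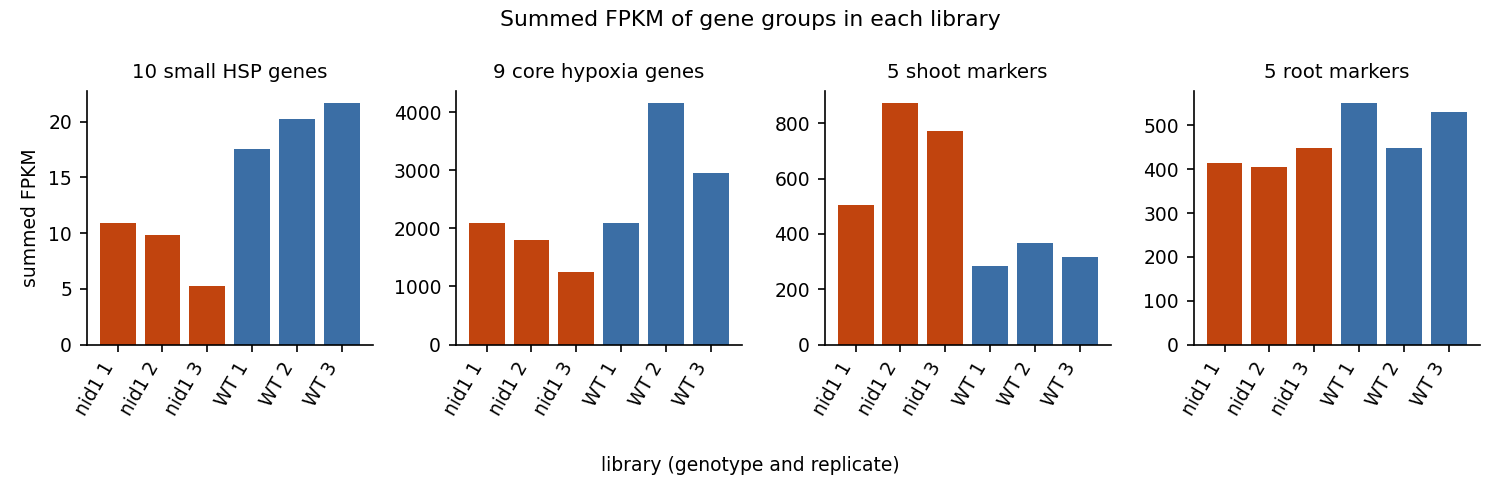
Summed FPKM (vertical axis, a separate scale in each panel) of 4 gene groups in each of the 3 nid1 libraries (orange, left) and 3 WT libraries (blue, right). The small heat shock sums of 10.87, 9.84 and 5.267 in nid1 lie below all WT sums, the hypoxia sums of nid1 replicate 1 and WT replicate 1 are 2092 and 2090, and all 3 shoot marker sums of nid1 exceed the 3 of WT.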

How the data were processed

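RNA from 6 libraries (3 nid1, 3 WT) was sequenced by the submitters as stranded 101-base pairs, per the labels' protocols. The authors deposited FPKM, 1 value per gene and library. The submitters' processing notes name bcl2fastq 2.20, Bowtie, TopHat2 2.0.13 and Cuffdiff 2.2.1, without roles, and the series' design text names both a Cufflinks route and one through BWA and ANOVA. The library scaling, strand setting and genome build were not stated there or in the labels. Of 38150 identifiers, 37932 equalled RefSeq gene identifiers of TAIR10.1, so coordinates and sequences come from that annotation and genome.

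FPKM values plus a pseudocount of 1 were put on the log2 scale and fitted with limma 3.58.1 (R 4.3.3; genotype alone in the model, eBayes with trend, two-sided tests). The fit held the 20533 genes that reached 1 FPKM in 3 or more libraries, with Benjamini-Hochberg adjustment over them. With 3 against 3 libraries an exact permutation test of 1 gene cannot go below p = 0.1 and was not used. The fit was tested on simulated data with known changes. Depth was approximated from single-transcript genes over 1500 bases, with an assumed fragment length of 200 bases. Coding sequences were aligned with Biopython 1.88.

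The 10 genes, the gene lists and the tests were chosen with earlier results of these data known. The text names all 10 genes, the 3 genes of smallest p in each other heat-response list and the 5 genes closest in profile. Genes chosen after their values were seen are marked. Alternatives were a replicate block, each library left out, pseudocounts of 0.1 and 0.5, a mean of at least 0.5 FPKM, no filter, median-ratio rescaling, eBayes without trend and, added after the data were seen, a pseudocount of 0.1 with no filter.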

Additional observations from a re-analysis of the deposited data

How the results depend on the processing

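Over all genes, 18 were called by limma, 70 with a replicate block, 24 with a pseudocount of 0.1 and no filter, and 8 to 35 when 1 library was left out (35, 8 and 10 on dropping nid1 replicates 1, 2 and 3 in turn, and 9, 25 and 8 on dropping the WT replicates in the same order). The cause was not tested. The counts of small heat shock genes and of other heat-response genes called were 0 as reported and in all 14 other settings. For the 7 small heat shock genes that passed the filter, 98 values from the other settings were all below 0, with limma adjusted p-values from 0.0708 to 1. All but HSP17.6A had every nid1 value below every WT value. For those genes, leaving out a library or changing the pseudocount or filter could not turn the sign, so most of these signs were fixed in advance. Of the 7, 3 passed with no nid1 library at 1 FPKM or more. With a pseudocount of 0.1 and no filter, the log2 fold changes of HSP21 and HSP22 were -2.03 and -1.83, against -0.65 and -0.56 with a pseudocount of 1 and no filter. Ratios of summed FPKM (nid1 over WT) with 1 library left out ran from 0.497 to 0.644 for class I and from 0.195 to 0.364 for the organelle genes. Whether the replicate numbers pair the libraries was not settled. Deviations of same-numbered libraries from their group means correlated at -0.0101, 0.129 and 0.297. The best-matching WT library was replicate 2 for nid1 replicates 1 and 2, and replicate 3 for nid1 replicate 3. With the replicate block 6 of the 7 genes had an unadjusted limma p under 0.05, as without it, and the share over all genes was not computed for that fit. Depth limits the genes at a few fragments, above all HSP21 and HSP22 in nid1 replicates 2 and 3.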

Other observations

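Heat shock element matches fell at a similar distance from the start codon in 5 of the 10 small heat shock genes. In HSP17.4, HSP17.6C, HSP22, HSP23.6 and HSP26.5 a match ended 137 to 144 bases before it. A match ending 130 to 150 bases before the start codon was found in 254 of 27443 protein-coding genes, a share of 0.926%. The interval was chosen after the positions were seen, and the class I genes HSP17.4 and HSP17.6C have coding sequences that are 85% identical, so the 5 genes are not independent.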
